A study of Mus musculus with 6 samples.

Results

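The genes that sense and mend DNA breaks were examined by RNA-Seq in WT mouse embryonic fibroblasts (MEFs) and in MEFs that lack *Anp32e*. The 45 genes are a hand-made list of homologous recombination, end joining, Fanconi anemia and checkpoint genes, out of 17283 genes with an adjusted p-value. Each gene was represented by its RefSeq transcript with the highest mean, and all 45 were found. The list was divided into 7 pathway groups by the known role of each protein.

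RNA-Seq was performed on 3 WT and 3 Anp32e null libraries from primary MEFs at passages below 8, seeded a day before total RNA was isolated. The null cells came from *Anp32e*-/- embryos, and the labels give neither the allele nor the strain nor the embryonic age. The libraries of a group are described as biological replicates. How many embryos stand behind them is not given in the sources used here, so p-values measure the spread between these cultures, which may come from 1 embryo or several.

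The data are the authors' deposited table of this comparison, made with DESeq2, with the mean normalized count over all 6 libraries and the log2FC of *Anp32e*-/- over WT with its standard error. It gives no values per library, so the total counts and the overlap of the groups are unknown, and the precision of each value is its standard error. Group means in normalized counts were derived here from that mean and log2FC. They are approximate and carry no error of their own. A gene was called at an adjusted p under 0.05 in the DESeq2 Wald test, adjusted over the whole transcript table. Intervals are 95% intervals of the log2FC from the standard error and a normal approximation.

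A broken chromosome is first bound by the MRN complex (MRE11, RAD50 and NBN), which activates the kinase ATM and starts to trim the ends. Ends that are trimmed back can be repaired by homologous recombination, with a sister chromatid as template. In this pathway BRCA1, PALB2 and BRCA2 act together. Ends that stay untrimmed are held by the Ku proteins and DNA-PKcs and sealed by ligase IV. ANP32E is known as a chaperone that takes the histone variant H2A.Z out of chromatin, and both act in the chromatin beside DNA breaks.

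The targeted gene *Anp32e* fell from 3259 normalized counts (computed WT mean) to 1121 in the null cells, at log2FC −1.54 ± 0.0935 (SE, DESeq2 adjusted p = 1.76e-58), so reads of the gene remained in the null libraries. The paper reports from its RNA-Seq tracks that the coding sequence of *Anp32e* is deleted in these cells. A count per transcript does not show where the remaining reads lie. Of the H2A.Z genes, *H2afz* stood at log2FC 0.19 (adjusted p = 0.0846) and *H2afv* was lower at −0.35 (adjusted p = 0.0128). Fibroblast markers such as *Vim* and *Col1a1* were abundant, with 12 of the 13 listed at a mean of 10 or more. Their summed levels of 559371 (WT) and 595607 (null) normalized counts were mostly *Vim*, and 8 of the 13 were higher and 1 lower, with *Col3a1* at 3173 and 9988 and *Dcn* at 12.7 and 275 normalized counts. Of 10 mesothelial markers, 8 were higher and 1 was lower in *Anp32e*-/- MEFs, with a median log2FC of 4.81. *Upk1b* had computed means of 3.47 and 1835 normalized counts, *Upk3b* of 5.04 and 1205 and *Krt18* of 280 and 1931, while *Wt1* was under the floor of 3 counts in WT and at 600 in the null cells. The sums of this list, 10339 and 13318, were mostly *Krt19*, the marker that was lower (9129 and 5671). Epithelial markers summed to 27.8 and 157, endothelial markers to 3160 and 2952 (mostly *Kdr*), macrophage markers to 347 and 265, skeletal muscle markers to 7208 and 2339 (mostly *Acta1*) and neural crest and glial markers to 111 and 169 normalized counts, WT first. The defining genes *Emcn*, *Myod1*, *Myf5*, *Foxd3* and *Esrp1* were listed at 0, but other genes of these lists were called. Higher were 1 epithelial, 2 endothelial, 2 macrophage and 1 neural crest and glial marker, and lower were 1 macrophage and 1 skeletal muscle marker. Among the higher ones, the endothelial *Tie1* and the macrophage marker *Fcgr1* had means over all libraries of 2.78 and 2.67, under the floor of 3 counts. *Cdh1* had computed means of 5.98 and 128 normalized counts, *Vwf* of 8.81 and 97.7 and *Erbb3* of 63.4 and 131. *Cd68*, the lower macrophage marker, had 311 and 203, and *Csf1r*, a higher one, had 26 and 54.1. *Xist* reached 5111 normalized counts in WT and the Y-linked *Ddx3y* 1103 in the null cells, each under the floor of 3 counts in the other group, so sex and genotype cannot be told apart. The part of other cell types and of sex in the results on repair genes was not tested, and in bulk RNA a change per cell and a change in the mix of cells cannot be told apart.

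The break repair genes changed little in size, and those that changed were more often lower than higher in *Anp32e*-/- MEFs. Of the 45 genes, 12 were lower and 5 higher. The lower genes were *Rad50*, *Mre11a*, *Brca2*, *Rad51d*, *Xrcc5*, *Lig4*, *Parp2*, *Xrcc1*, *Trp53bp1*, *Atm*, *Fanca* and *Fanci*. The higher genes were *Rad51b*, *Rad52*, *Mdc1*, *Rnf8* and *Fancc*. The median log2FC of the 45 genes was −0.18, from −0.68 for *Parp2* to 0.61 for *Rad51b*.

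The share of repair genes called, 37.8%, has to be read against the rest of the table. Among all 17283 genes with an adjusted p-value 30.9% were called, 16.8% higher and 14.1% lower. The lowest mean among the repair genes was 197.6 normalized counts, so the closer background is the 11521 genes whose mean was 100 or more. Of that background 39.1% were called, 21.6% higher and 17.4% lower. The number of repair genes called was therefore near the background, and the direction was less even: 26.7% of them were lower and 11.1% higher. A negative log2FC was listed for 30 of the 45 (66.7%), against 49.8% of the genes with a mean of 100 or more, whose median was 0.00. The list was chosen with earlier results of these data known, so these shares are a description and not a test.

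With an absolute log2FC over 0.5 required as well, 7 repair genes were lower and 2 higher, *Rad51b* and *Mdc1*. By this rule 8.2% of all genes were lower and 8.67% higher, and in the background of 11521 genes 8.6% and 9.37%. No repair gene passed an absolute log2FC of 1. When the size of 0.5 was made part of the Wald test, computed here from the deposited log2FC and standard errors, none of the 45 passed, also at an unadjusted p under 0.05. The 95% intervals of 44 of the 45 genes lay within a 2-fold change in either direction. The exception was *Rad51b*, with the lowest mean of the list and an interval reaching up to 2.09-fold.

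**Figure D1:**
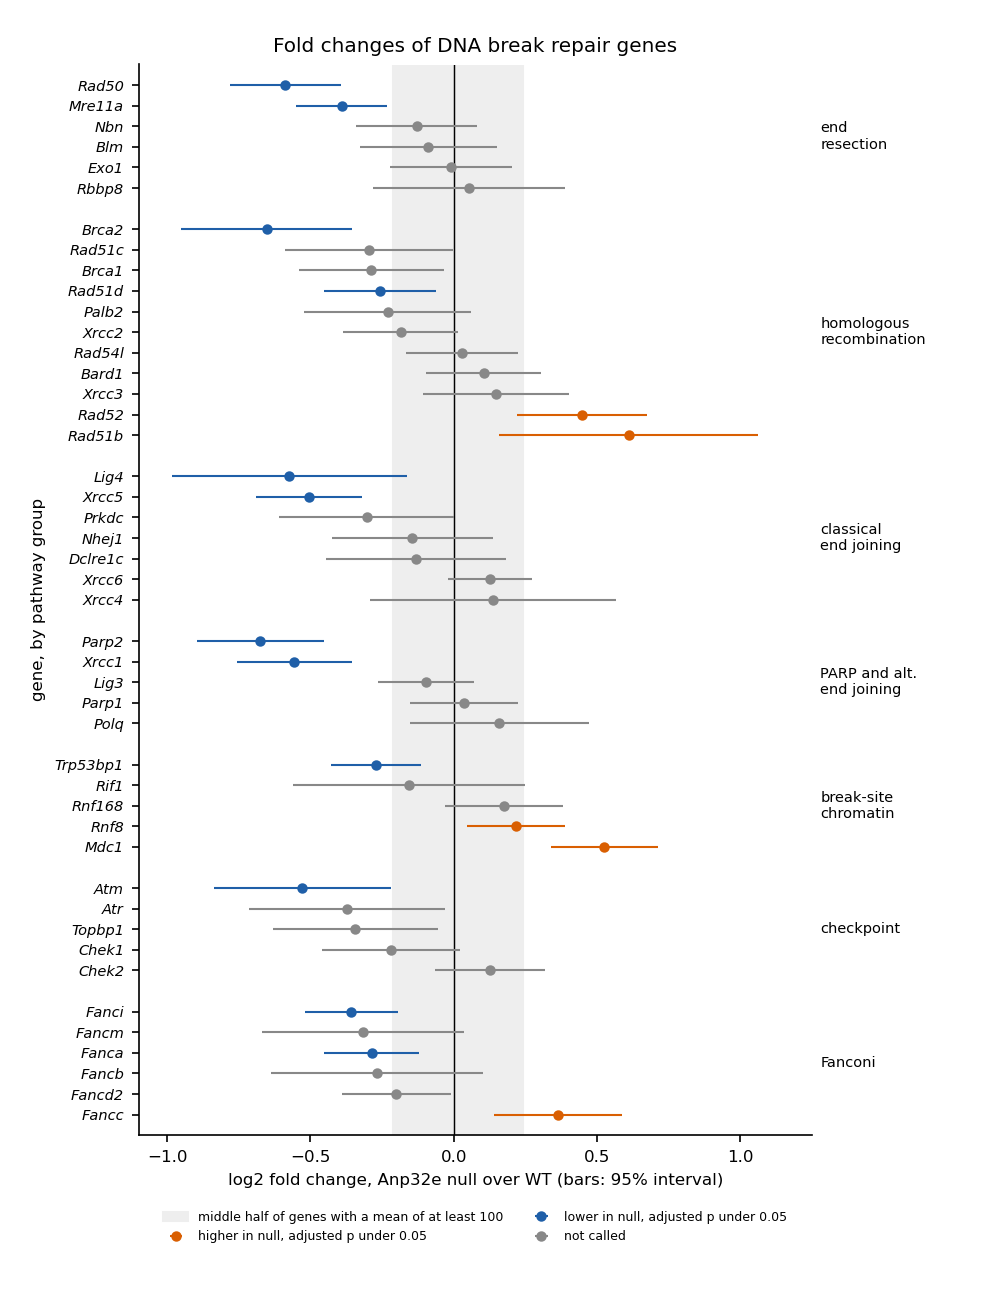
Log2FC of *Anp32e*-/- over WT MEFs for the 45 break repair genes by pathway group, with bars for 95% intervals and grey shading for the span between the quartiles of genes with a mean of 100 or more. The 12 genes called lower lie in all 7 groups, and the 5 called higher lie in homologous recombination, break-site chromatin signalling and the Fanconi group.

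Chromosome position has to be considered first, since the median log2FC of all genes differed between autosomes from −0.34 on chromosome 14 to 0.34 on chromosome 19. Of the repair genes, 10 lie on chromosomes 9 and 11, whose medians were −0.22 and −0.16, and all 10 had a negative log2FC. *Mdc1* and *Rnf8*, which were higher, lie on chromosome 17 with a median of 0.33, and *Parp2*, which was lower, on chromosome 14. When each chromosome's median was subtracted and the Wald tests were repeated, 10 of the 17 called genes stayed called in the same direction. These were *Rad50*, *Brca2*, *Rad51b*, *Rad52*, *Xrcc5*, *Parp2*, *Xrcc1*, *Trp53bp1*, *Fancc* and *Fanci*. The calls of *Mre11a*, *Rad51d*, *Lig4*, *Mdc1*, *Rnf8*, *Atm* and *Fanca* were lost, with sizes that moved little for *Lig4* (−0.57 to −0.47) and more for *Rad51d* (−0.26 to −0.10) and *Rnf8* (0.22 to −0.11).

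Without the chromosome medians, *Prkdc*, *Xrcc6* and *Fancd2* were called lower in addition, so that 10 genes were lower and 3 higher. In this setting 23.2% of all genes were called, and of the background of 11521 genes 28%, with 13.4% lower and 14.7% higher. The median of the 45 genes was −0.13 and 33 were negative. A shift of a whole chromosome and changes of its genes by themselves cannot be told apart in this table.

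**Figure D2:**
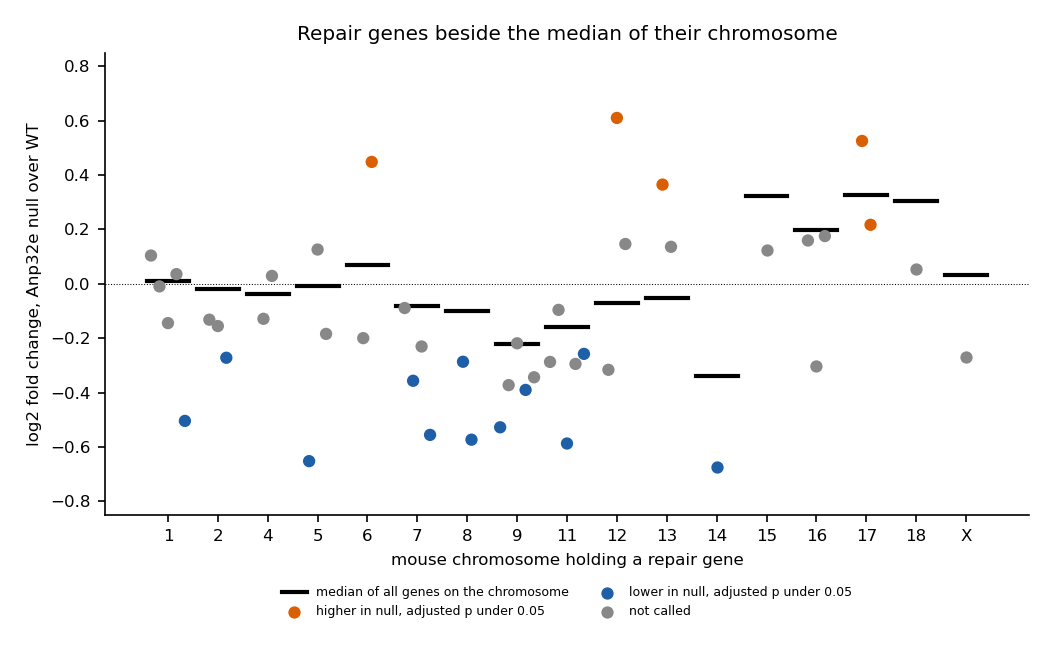
Log2FC of *Anp32e*-/- over WT MEFs for each repair gene (points) on the chromosome that holds it, with black bars at the median of all genes on that chromosome. The 5 points on chromosome 9 and the 5 on chromosome 11 all lie below 0, where the chromosome medians are −0.22 and −0.16.

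In the end resection group, *Rad50* and *Mre11a* were lower and the other 4 genes were not called, with a group median of −0.11. *Rad50*, an ATPase that tethers broken ends, lies on chromosome 11 from 53649519 to 53707319 of GRCm38. It fell from a computed 2636 to 1754 normalized counts, with a log2FC of −0.59 ± 0.0992 (SE, DESeq2 adjusted p = 4.54e-08). *Mre11a*, the nuclease of the same complex, had computed means of 3011 and 2297 normalized counts and a log2FC of −0.39 ± 0.0812 (SE, DESeq2 adjusted p = 1.38e-05). *Nbn*, which links the complex to ATM, had a log2FC of −0.13 with an interval from −0.34 to 0.08. The interval of *Rad50*, from −0.78 to −0.39, did not overlap that of *Nbn*, and the interval of *Mre11a*, from −0.55 to −0.23, did. With chromosome medians taken out, *Rad50* remained lower at −0.43 (adjusted p = 0.00016), while *Mre11a* stood at −0.17 (adjusted p = 0.122). *Nbn* stood at −0.09 in that setting, and its interval, from −0.30 to 0.12, then overlapped that of *Rad50*, from −0.62 to −0.23.

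The other 3 genes of the group had log2FC values near 0. *Exo1*, which encodes an exonuclease, had a log2FC of −0.01 with an interval from −0.22 to 0.20. *Blm*, a helicase, had −0.09, and *Rbbp8*, which encodes CtIP, the cofactor of MRE11 that starts trimming, had 0.05. For *Rbbp8* the sign turned with the median of chromosome 18 taken out, to −0.25 (adjusted p = 0.313).

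In homologous recombination 2 of 11 genes were lower and 2 higher, with a group median of −0.18. *Brca2*, a core mediator of this pathway, fell from a computed 754 to 480 normalized counts, with a log2FC of −0.65 ± 0.152 (SE, DESeq2 adjusted p = 0.000136). Its interval ran from −0.95 to −0.35, the value was −0.65 with the median of chromosome 5 taken out. *Brca1*, the ubiquitin ligase that works with it, had a log2FC of −0.29 and was not called (adjusted p = 0.0733). *Bard1*, the obligate partner of BRCA1, had 0.10 with an interval from −0.10 to 0.31, and *Palb2*, which bridges BRCA1 and BRCA2, had −0.23 with an interval from −0.52 to 0.06.

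*Rad52*, which encodes a strand annealing protein, was higher, with computed means of 448 and 611 normalized counts and a log2FC of 0.45 ± 0.115 (SE, DESeq2 adjusted p = 0.000628). *Rad54l*, which encodes a DNA motor protein, had a log2FC of 0.03 with an interval from −0.16 to 0.22.

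*Rad51b*, a recombination mediator gene, had the largest positive log2FC of the list, 0.61 ± 0.231 (SE, DESeq2 adjusted p = 0.0284), at computed means of 156 and 239 normalized counts. Its other transcript, with a mean of 127, had 0.56 and was not called (adjusted p = 0.0844). *Rad51d* was lower at −0.26 (adjusted p = 0.0329) and lost this call with the median of chromosome 11 taken out (adjusted p = 0.542). *Rad51c* had −0.29 (adjusted p = 0.122), *Xrcc2* −0.18 (adjusted p = 0.165) and *Xrcc3* 0.15 (adjusted p = 0.425). The proteins of *Rad51b*, *Rad51c*, *Rad51d* and *Xrcc2* form a complex, and within it the interval of *Rad51b*, from 0.16 to 1.06, overlapped none of the other 3.

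In classical end joining 2 of 7 genes were lower and none higher, with a group median of −0.14. *Xrcc5*, which encodes Ku80, fell from a computed 2145 to 1512 normalized counts, with a log2FC of −0.50 ± 0.0944 (SE, DESeq2 adjusted p = 1.04e-06). *Xrcc6*, which encodes its partner Ku70, had a log2FC of 0.13 (adjusted p = 0.202), at computed means of 3367 and 3674 normalized counts. The intervals of both, from −0.69 to −0.32 and from −0.02 to 0.27, did not overlap. With chromosome medians taken out *Xrcc6* stood at −0.20 and was called lower (adjusted p = 0.0392), since chromosome 15 had a median of 0.32, while *Xrcc5* stood at −0.51. The intervals then met, from −0.34 to −0.05 for *Xrcc6* and from −0.70 to −0.33 for *Xrcc5*.

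*Lig4*, the ligase of this pathway, was lower with a log2FC of −0.57 ± 0.209 (SE, DESeq2 adjusted p = 0.0218), at computed means of 364 and 244 normalized counts. With the median of chromosome 8 taken out it stood at −0.47 and was not called (adjusted p = 0.0833). Its scaffold partner *Xrcc4* had 0.14 with an interval from −0.29 to 0.57. *Prkdc*, which encodes DNA-PKcs, had −0.30 with an interval from −0.61 to 0.00 and was called only with chromosome medians taken out, at −0.50 (adjusted p = 0.00732). *Dclre1c*, the nuclease Artemis, had −0.13, and *Nhej1*, a factor that bridges the ends, had −0.14.

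Among the PARP and alternative end joining genes 2 of 5 were lower and none higher, with a group median of −0.10. *Parp2*, a poly(ADP-ribose) polymerase, had the largest decrease of the list, from a computed 1273 to 797 normalized counts. Its log2FC was −0.68 ± 0.113 (SE, DESeq2 adjusted p = 3.61e-08), and with the median of chromosome 14 taken out it was −0.33 (adjusted p = 0.0161). *Parp1*, which makes most of the polymer at breaks, had a log2FC of 0.04 with an interval from −0.15 to 0.22. Its level per length, 2118 normalized counts per kb of transcript, was the highest of the 40 repair genes with a length, against 547 for *Parp2*.

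*Xrcc1*, the scaffold for repair of nicked strands, fell from a computed 3936 to 2677 normalized counts, with a log2FC of −0.56 ± 0.103 (SE, DESeq2 adjusted p = 7.32e-07). *Lig3*, the ligase bound to XRCC1, had −0.10 with an interval from −0.26 to 0.07, which did not overlap that of *Xrcc1*, from −0.76 to −0.35. *Polq*, the polymerase of alternative end joining, had 0.16 with an interval from −0.15 to 0.47.

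**Figure D3:**
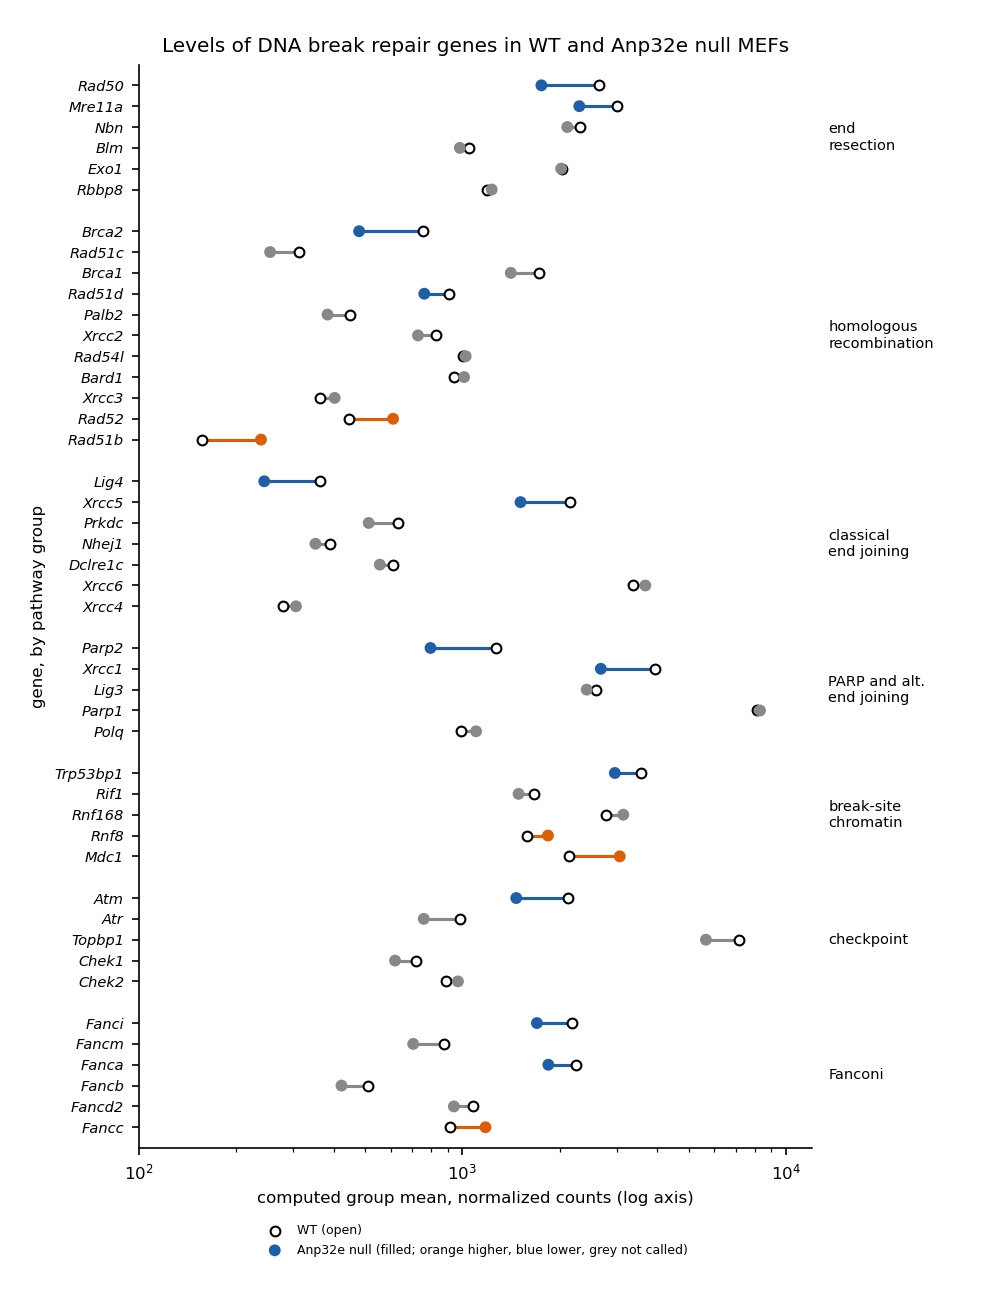
Computed group means in normalized counts (log axis) for the 45 repair genes in WT (open) and *Anp32e*-/- MEFs (filled), joined by a line. The computed means run from 156 for *Rad51b* in WT to 8303 for *Parp1* in *Anp32e*-/- MEFs, and no pair is as far apart as a 2-fold change.

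Break-site chromatin signalling is the group of proteins that read and write marks on nucleosomes beside a break. It was the only group with a positive median, 0.18, with 2 of 5 genes higher and 1 lower. *Mdc1*, which binds the phosphorylated histone H2A.X, rose from a computed 2127 to 3062 normalized counts, with a log2FC of 0.53 ± 0.0952 (SE, DESeq2 adjusted p = 4.13e-07). *Rnf8*, the ubiquitin ligase that MDC1 recruits, had 0.22 ± 0.0871 (SE, DESeq2 adjusted p = 0.041), and *Rnf168*, the next ligase, had 0.18 (adjusted p = 0.204). With chromosome medians taken out *Mdc1* stood at 0.20 (adjusted p = 0.118), *Rnf8* at −0.11 and *Rnf168* at −0.02, and the group median at −0.11. The positive median of this group thus reversed with that setting.

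*Trp53bp1*, which encodes 53BP1, a reader of histone marks that protects ends from trimming, was lower. Its computed means were 3571 and 2957 normalized counts and its log2FC was −0.27 ± 0.0798 (SE, DESeq2 adjusted p = 0.00319). *Rif1*, which 53BP1 recruits, had −0.16 with an interval from −0.56 to 0.25. *Trp53bp1* remained called with the median of chromosome 2 taken out, at −0.25 (adjusted p = 0.00906).

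Of the 5 checkpoint genes 1 was lower and none higher, and the group had the lowest median of the 7, −0.34. *Atm*, the kinase activated by breaks, fell from a computed 2115 to 1467 normalized counts, with a log2FC of −0.53 ± 0.157 (SE, DESeq2 adjusted p = 0.0037). *Atr*, the kinase activated by exposed strands, had −0.37 (adjusted p = 0.0895), and its activator *Topbp1* had −0.34 (adjusted p = 0.0582). *Chek1*, the kinase downstream of ATR, had −0.22 (adjusted p = 0.172), and *Chek2*, the kinase downstream of ATM, had 0.13 (adjusted p = 0.349). *Atm*, *Atr*, *Topbp1*, *Chek1* and *Mre11a* all lie on chromosome 9. With its median taken out *Atm* stood at −0.31 (adjusted p = 0.153), *Atr* at −0.15, *Topbp1* at −0.12 and *Chek1* at 0.00, and no checkpoint gene was called. The group median was then −0.12, and that of the Fanconi genes, −0.26, was the lowest of the 7.

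In the Fanconi anemia group, whose proteins unhook crosslinked strands, 2 of 6 genes were lower and 1 higher, with a group median of −0.28. *Fanci* and *Fancd2* encode the clamp that the core complex ubiquitinates. *Fanci* was lower, at computed means of 2176 and 1699 normalized counts and a log2FC of −0.36 ± 0.0828 (SE, DESeq2 adjusted p = 0.000123). *Fancd2* had −0.20 (adjusted p = 0.105), and with chromosome medians taken out it was called at −0.27 (adjusted p = 0.0275).

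Of the core complex genes, *Fanca* was lower at −0.29 (adjusted p = 0.00368, and 0.0954 with the median of chromosome 8 taken out) and *Fancc* higher at 0.37 (adjusted p = 0.00619), with computed means of 915 and 1178 normalized counts. The intervals of *Fanca*, from −0.45 to −0.12, and *Fancc*, from 0.14 to 0.59, lay on opposite sides of 0. *Fancm*, a translocase, had −0.32 (adjusted p = 0.177). *Fancb* had −0.27 with an interval from −0.64 to 0.10, and it lies on the X chromosome, where sex and genotype cannot be told apart.

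The transcripts of a gene share exons and most of their reads, so their values are not independent. The 45 genes have 98 transcripts in the table, 22 genes have more than 1, and for 21 of these every transcript had the same sign. The exception was *Dclre1c*, with 7 transcripts from −0.13 to 0.02. With the transcript of the next highest mean in place of the first, only *Rad51b* lost its call among the 20 genes that have transcripts with other values.

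Exons of 10 repair genes overlap those of another gene by more than 5% of their length, on the opposite strand for 9. Among the called genes these were *Fancc* (16.4%, with *Gm16133*), *Fanci* (16%, with *Polg*), *Trp53bp1* (15%, with *Tubgcp4*), *Rnf8* (13.2%, with *Gm28043* on the same strand) and *Fanca* (10.5%, with *Zfp276*). Among the uncalled genes these were *Lig3* (25.1%, with *Rffl*), *Rad54l* (15.4%, with *Lrrc41*), *Xrcc6* (7.69%, with *Desi1*), *Palb2* (5.64%, with *Gm16326*) and *Fancm* (5.51%, with *Gm47870*). Counting is described only as run at default settings, and the strand setting is not named. Whether reads in these overlaps were told apart is unknown, so the values of all 10 genes are less certain. *Lig3* and *Xrcc6*, set beside *Xrcc1* and *Xrcc5* above, are among them.

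Longer repair transcripts tended to have lower log2FC. Across the 40 repair genes with a transcript length Spearman's rho of length and log2FC was −0.33, against −0.02 across 10307 genes with a mean of 100 or more. These are descriptions across genes that share the same libraries and are not independent replicates. *Brca2*, at 10.7 kb, and *Atm*, at 9.79 kb, were lower, and *Rad51b*, at 1.86 kb, and *Rad52*, at 1.69 kb, were higher. Other genes went against this order. *Parp2*, at 1.89 kb, had the largest decrease, *Mdc1*, at 7.3 kb, was higher, and *Polq*, at 8.55 kb, and *Exo1*, at 7.8 kb, were not called. The rho was not computed with chromosome medians taken out.

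Many repair genes start close to another gene on the opposite strand. Of the 45, 17 have a protein-coding neighbour whose start lies within 1000 bases, and 3 of these neighbours were called. Among all genes with an adjusted p-value 30.9% were called, and among those with a mean of 100 or more 39.1%. The neighbours *Ccnb1ip1*, *Pinlyp* and *1300017J02Rik* had means under the floor of 3 counts. In 12 pairs both genes had the same sign and in 5 opposite signs. The pairs with these neighbours under the floor are all among the 12, where the sign of the neighbour carries little information. The share of same-sign pairs over all genes with such a neighbour is not given here. The pair shares a chromosome, so the chromosome medians enter both values. *Npat*, a histone gene coactivator that starts 307 bases from *Atm*, was lower with a log2FC of −0.41 (adjusted p = 0.0111), the only pair in which both genes were called. *Nbr1*, 194 bases from *Brca1*, was lower at −0.49 (adjusted p = 7.71e-09), where *Brca1* had −0.29. *Mcm4*, a subunit of the replicative helicase 466 bases from *Prkdc*, was higher at 0.33 (adjusted p = 3.42e-05), where *Prkdc* had −0.30.

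The study examined SP1 and NF-YB at accessible sites, and their boxes were searched on both strands in RefSeq promoters of GRCm38.p6, from 250 bases before to 50 after each start. Promoters were available for 36 of the repair genes. The SP1 box GGGCGG was found in 27 of them (75%) and in 71.6% of 9210 genes with a mean of 100 or more. The CCAAT box, bound by NF-Y, was found in 19 (52.8%) and in 43.6% of those genes. E2F sites (TTTGGCGC, TTTCCCGC, TTTGCCGC or TTTCGCGC) were found in 7 (19.4%) and in 5.14% of those genes, and the cyclic AMP element TGACGTCA in 2 and in 3.68%. E2F sites stood in the promoters of *Brca2*, *Bard1*, *Rad51c*, *Xrcc6*, *Mdc1*, *Chek2* and *Topbp1*, of which *Brca2* was lower, *Mdc1* higher and the other 5 not called. Over all 27025 genes with a promoter the shares were 38.2%, 41.1%, 2.6% and 2.03%. A match is a description of these letters and not a bound site.

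Promoters of 4 called genes are shown to set the boxes beside opposite directions, *Mdc1* being higher and *Fanca*, *Brca2* and *Trp53bp1* lower. Each is the 120 bases before the start, 5′ to 3′ on the gene's strand, in GRCm38.p6, with the searched motifs in capitals. The windows are chr17:35841378-35841497 (plus strand) for *Mdc1*, chr8:123318577-123318696 (minus strand) for *Fanca*, chr5:150522501-150522620 (plus strand) for *Brca2* and chr2:121271408-121271527 (minus strand) for *Trp53bp1*.
Mdc1: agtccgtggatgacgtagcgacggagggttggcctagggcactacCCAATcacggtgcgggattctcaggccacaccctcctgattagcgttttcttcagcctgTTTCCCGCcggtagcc
Fanca: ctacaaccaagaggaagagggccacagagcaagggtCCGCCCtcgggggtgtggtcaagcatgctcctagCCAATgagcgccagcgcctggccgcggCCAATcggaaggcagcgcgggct
Brca2: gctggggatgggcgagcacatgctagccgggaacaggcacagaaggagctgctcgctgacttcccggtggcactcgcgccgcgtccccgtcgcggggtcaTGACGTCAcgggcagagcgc
Trp53bp1: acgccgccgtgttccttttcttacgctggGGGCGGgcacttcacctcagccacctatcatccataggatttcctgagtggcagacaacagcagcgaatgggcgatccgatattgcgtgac
The *Mdc1* window holds a CCAAT box and an E2F site, that of *Fanca* an SP1 box on the opposite strand and 2 CCAAT boxes, that of *Brca2* the cyclic AMP element and that of *Trp53bp1* an SP1 box. The CCAAT box thus stands before a gene that was higher and a gene that was lower. Both, *Mdc1* and *Fanca*, lost their calls with chromosome medians taken out. In the whole searched promoters 9 called genes held this box. Of these *Rad51b*, *Mdc1*, *Rnf8* and *Fancc* were higher, and *Mre11a*, *Xrcc5*, *Xrcc1*, *Atm* and *Fanca* were lower. Motifs counted above but outside these 120 bases, such as the E2F site of *Brca2*, are not shown.

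A further 79 genes of the same pathways, outside the list of 45, were set beside it. Of these 13 were lower and 15 higher, 35.4% called in all, with a median log2FC of −0.01 and 54.4% negative. The larger share of lower genes in the list of 45 was therefore not seen in the 79 other genes as a whole. The difference between both lists was not tested. By pathway, more of the other genes were lower than higher in end resection (3 and 1), the PARP group (2 and 1) and the Fanconi group (4 and 2). Fewer were lower than higher in homologous recombination (1 and 2), break-site chromatin signalling (1 and 5) and the checkpoint group (2 and 4). With chromosome medians taken out, 6 of the 79 were lower and 7 higher.

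In end resection *Wrn*, the Werner helicase, was lower with a log2FC of −0.68 (adjusted p = 4.67e-07) and *Rmi2*, a partner of BLM, higher at 0.91 (adjusted p = 2.5e-07), beside *Recql5*, a helicase, at −0.31 (adjusted p = 0.043). In homologous recombination *Tonsl*, a reader of newly made histones, had 0.51, *Brip1*, a helicase bound to BRCA1, −0.38 and *Sfr1* 0.21. None of 6 further end joining genes was called. In the PARP group *Fen1*, the flap nuclease, had 0.44 and *Parp3* and *Polb* each −0.27.

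In break-site chromatin signalling 5 of 14 further genes were higher and 1 lower, with a median of 0.12. *Kat5*, the acetyltransferase of the p400 complex that also deposits H2A.Z, was higher at 0.36 (adjusted p = 0.000335), *Ring1* at 0.42 and *Nudt16l1*, which encodes a 53BP1 partner, at 0.39. With chromosome medians taken out these 3 stood at 0.02, 0.10 and 0.19 and were not called. In that setting *Paxip1* (0.34, adjusted p = 0.000838) remained higher, *Rnf169* (−0.24, adjusted p = 0.0355) remained lower and *H2afx*, the gene of H2A.X, was called higher (0.39, adjusted p = 0.026). Among checkpoint genes *Timeless*, a fork protection protein, was higher at 0.47 (adjusted p = 3.99e-07), its partner *Tipin* lower at −0.44 (adjusted p = 0.00628) and *Rad9a*, a subunit of the 9-1-1 clamp, higher at 0.40. In the Fanconi group *Fan1*, a nuclease, had −0.64 (adjusted p = 0.00083), *Fancl*, the ubiquitin ligase of the core complex, −0.63 (adjusted p = 0.00203) and *Rev1*, a translesion polymerase, 0.52 (adjusted p = 2.37e-07). *Wrn*, *Rmi2*, *Timeless*, *Fancl*, *Fan1* and *Rev1* stayed called with chromosome medians taken out, as did *Paxip1* and *Rnf169*, and the other genes named here that had been called did not.

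**Figure D4:**
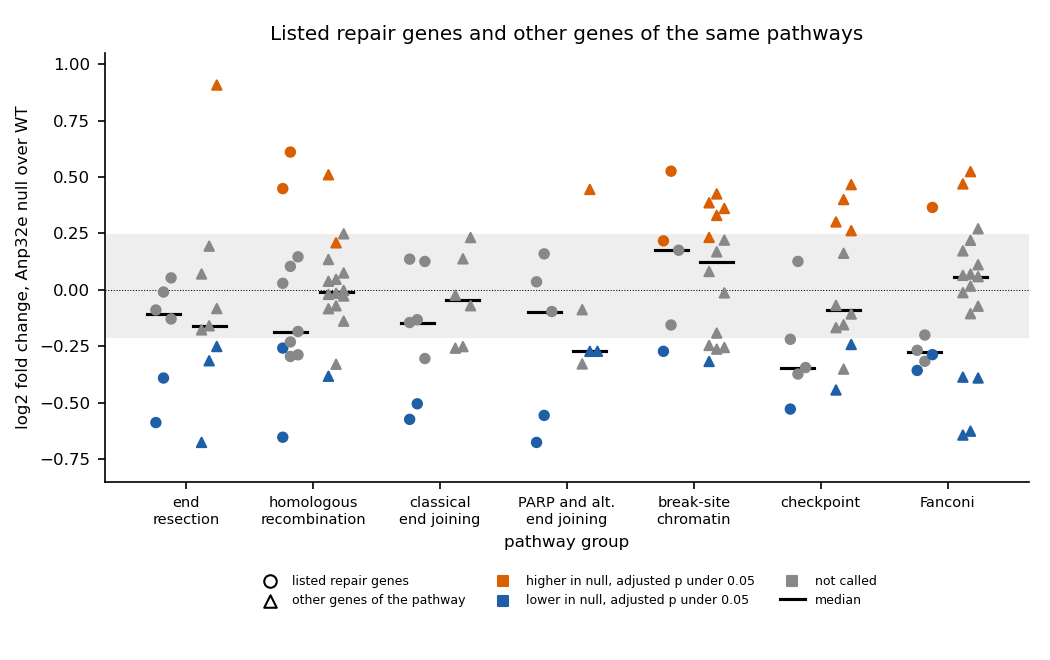
Log2FC of *Anp32e*-/- over WT MEFs for the 45 listed repair genes (circles) and 79 other genes of the same pathways (triangles) by pathway group, with black bars at medians and grey shading for the span between the quartiles of genes with a mean of 100 or more. The medians of the listed and the other genes are −0.34 and −0.09 for the checkpoint and −0.28 and 0.06 for the Fanconi group. The listed genes also have the lower median in homologous recombination (−0.18 and −0.01) and classical end joining (−0.14 and −0.05). The other genes have it in end resection (−0.11 and −0.16), the PARP group (−0.10 and −0.27) and break-site chromatin signalling (0.18 and 0.12).

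Repair by recombination is tied to DNA synthesis, and breaks signal to p53 through ATM and CHK2, so genes of both were set beside the list. Of 30 replication fork genes 5 were higher and 3 lower (26.7% called), with a median log2FC of 0.02. Of 15 p53 target genes 7 were lower (46.7%) and none higher, with a median of −0.29. Of the genes with a mean of 100 or more 39.1% were called, 17.4% lower. With chromosome medians taken out the medians of the 2 lists were 0.03 and −0.34. A link of either list to the repair genes was not tested. Whether these values move with those of the repair genes from library to library could not be examined without values per library.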

How the data were processed

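RNA-Seq libraries of 3 WT and 3 *Anp32e*-/- MEF cultures were made with a stranded total RNA kit. Reads were aligned by the authors with RNA-STAR (genome mm10). The authors' counts per RefSeq transcript came from featureCounts and were compared in DESeq2 at its defaults. The deposited signal is the mean over libraries of counts divided by size factors. The deposited log2 fold changes and standard errors are unshrunken, since the deposited score, the Wald statistic, equals their ratio within 1.3e-13. Each deposited p-value is the authors' Wald p, and their adjusted p follows Benjamini-Hochberg, with DESeq2's independent filtering. These columns are the authors' own comparison and are the only measurements used, in place of a fit to counts. Depth per library is unknown.

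Transcripts were matched to RefSeq genes of GRCm38.p6, leaving 158 of 42361 without a gene. Transcript lengths, exons and starts came from GENCODE M21 on the same build. Computations used Python 3.11.15, numpy 2.4.6, pandas 2.3.3, scipy 1.17.1 and matplotlib 3.10.9, and were tested on simulated data. Alternatives were other adjustments, filters on the mean, autosomes alone, chromosome medians taken out, another transcript, a stricter threshold and a fold threshold within the test. Of the 79 other repair genes, 3 were matched by an older symbol. Genes were named by rule: every called member, the 2 uncalled members with the highest mean per pathway group, *Anp32e*, the H2A.Z genes and, per list of other repair genes, up to 3 called genes with the largest absolute log2FC and a mean of at least 50. The remaining members, the divergent neighbours, 3 further chromatin genes, markers and sex-linked genes, and the motifs were chosen after values were seen. The members and lists were chosen with earlier results of these data known.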

Additional observations from a re-analysis of the deposited data

How the results depend on the processing

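No paired analysis was possible because the table holds no values per library, and for the same reason leaving out a library was not run. With chromosome medians taken out 13 of the 45 genes were called in place of 17 (10 stayed, 7 were lost and 3 were gained). At an adjusted p under 0.01 also 13 were called, 3 higher and 10 lower. Taking out chromosome medians moved the 9 calls that also required a log2FC to 4, and putting the size of 0.5 into the test itself moved them to 0. The chromosome medians moved the calls among other repair genes from 28 to 13, in end resection from 2 to 1, in break-site chromatin signalling from 3 to 1 and among checkpoint genes from 1 to 0. The log2FC reversed without the medians for *Rbbp8* (−0.25), *Xrcc6* (−0.20), *Lig3* (0.064), *Polq* (−0.039), *Rnf8* (−0.11), *Rnf168* (−0.023) and *Chek1* (0.0030). Each value follows from the median subtracted, and the cause of the chromosome medians was not tested. Adjustment over genes, over every transcript with a read, or over means of at least 10 changed the call of none of the 45 genes, and over autosomes alone none of 44. Depth per library is unknown, and standard errors of members ran from 0.075 to 0.231.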
